A study of Homo sapiens with 22 samples.

Results

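The regions described here were stretches of chromatin that carried an H3K4me3 peak in both control lists of TC-32 cells and in neither list made after knockdown of FLI1. On chromosomes 1 to 22 and X, joining the 4 H3K4me3 lists at an overlap of 1 bp gave 20727 regions. Of these, 586 (2.83%) met the rule and are called lost, 449 (2.17%) met the opposite rule and are called gained, and 12984 were in all 4 lists. A siFLI1 peak lay within 1 kb of 414 lost regions, called flanking, and the other 172 (0.830% of all merged regions) are called isolated, a name that refers to siFLI1 peaks alone. The members were thus chosen by the presence or absence of H3K4me3 peaks, so their H3K4me3 values are given as a description with no test.

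TC-32 is an established cell line from an Ewing sarcoma, a tumour of bone and soft tissue driven by the fusion protein EWSR1::FLI1. The control arm (siNEG) received a negative control siRNA and the knockdown arm (siFLI1) an siRNA to FLI1, each at 20 nM, the latter being the means of depleting the fusion, whose own level was not measured in the lists. All libraries came from this one line, and the labels gave no time after transfection and did not say whether replicates were separate cultures. Chromatin was immunoprecipitated with antibodies to H3K4me3, H3K27ac and the transcription factor ETS1, with 2 libraries per arm for each. A further H3K27ac library per arm carried a label that joins the antibody name ab4729 with the catalogue number of the other H3K27ac libraries, so its antibody is uncertain. This pair is called ab4729 here and was kept apart.

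H3K4me3, trimethylation of lysine on histone H3, is known as a mark of transcription start sites (TSSs), above all those in CpG islands, where it forms broad blocks around the start. Weak H3K4me3 is also found at strong enhancers, and H3K27ac, an acetylation of the same histone, marks active promoters and enhancers. EWSR1::FLI1 joins a transcriptional activator domain to the ETS DNA-binding domain of FLI1. It is known to bind tandem repeats of GGAA, which it turns into enhancers in Ewing sarcoma cells.

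The sequences that bear on the fusion are the GGAA repeats beside lost regions, because such repeats are its known binding sites. Below are the 6 longest runs within 1 kb of the centre of a lost region, read from hg38 on the plus strand, with up to 24 bases to each side, and with units in the orientation of the run (GGAA or TTCC) in capitals. In the order given they lie at chr11:1044395-1044506, chr6:123223650-123223757, chr4:180565210-180565313, chr10:18917642-18917733, chr9:105452648-105452739 and chr1:177729891-177729974. The lost region beside each was intergenic on chromosomes 11, 4 and 10 and had its centre in an intron of TRDN, of FSD1L and of a long non-coding RNA gene on chromosome 1. The longest runs held 16, 15, 14, 11, 11 and 9 units.
Chromosome 11 repeat: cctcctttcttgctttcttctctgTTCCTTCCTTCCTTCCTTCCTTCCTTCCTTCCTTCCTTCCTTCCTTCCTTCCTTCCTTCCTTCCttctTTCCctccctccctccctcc
TRDN repeat: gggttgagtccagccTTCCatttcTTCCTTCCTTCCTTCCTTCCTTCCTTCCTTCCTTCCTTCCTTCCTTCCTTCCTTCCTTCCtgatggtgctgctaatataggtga
Chromosome 4 repeat: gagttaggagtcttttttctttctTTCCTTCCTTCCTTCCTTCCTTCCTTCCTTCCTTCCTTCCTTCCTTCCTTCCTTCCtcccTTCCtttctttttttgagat
Chromosome 10 repeat: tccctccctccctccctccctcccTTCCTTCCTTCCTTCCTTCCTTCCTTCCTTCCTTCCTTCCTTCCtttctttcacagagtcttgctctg
FSD1L repeat: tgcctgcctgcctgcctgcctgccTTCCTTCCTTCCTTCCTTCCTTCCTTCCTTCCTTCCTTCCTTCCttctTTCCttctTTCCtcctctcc
Chromosome 1 repeat: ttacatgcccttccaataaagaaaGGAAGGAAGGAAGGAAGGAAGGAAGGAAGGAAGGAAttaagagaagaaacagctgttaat

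A second set shows how widely the CpG content varied among isolated lost regions at promoters. These are 120 bases at the centre of the regions at PADI2 (chr1:17118977-17119096), RUBCNL (chr13:46387029-46387148) and NHSL1 (chr6:138498839-138498958), again on the plus strand of hg38, with each CG in capitals. They held 3, 9 and 0 CG pairs.
PADI2 centre: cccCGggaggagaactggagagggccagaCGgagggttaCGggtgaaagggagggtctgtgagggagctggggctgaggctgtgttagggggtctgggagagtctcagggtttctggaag
RUBCNL centre: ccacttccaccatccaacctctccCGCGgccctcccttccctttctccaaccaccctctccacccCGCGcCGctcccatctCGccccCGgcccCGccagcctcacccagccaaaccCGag
NHSL1 centre: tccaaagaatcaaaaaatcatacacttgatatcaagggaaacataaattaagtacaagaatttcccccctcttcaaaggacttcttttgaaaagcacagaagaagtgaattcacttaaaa

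The H3K4me3 lists held 18914 and 19720 peaks in siNEG and 18344 and 18423 in siFLI1, and the depth of the libraries was not in the lists. The authors' fold enrichment of a peak over local background had a list median of 20.1 and 17.8 in siNEG and 24.9 and 24.8 in siFLI1. The siNEG lists were thus longer and had the lower medians. With each list cut to its 18344 strongest peaks, 457 regions were lost and 140 of them isolated, and the part of the medians in the losses was not tested. The Ewing sarcoma genes CD99, NKX2-2, NR0B1, PAX7 and CCND1 had an H3K4me3 peak at a TSS in all 4 lists. Of 6 genes of mesenchymal stromal cells or fibroblasts, COL1A1, COL3A1, PDGFRB and THY1 also had a peak in all 4 lists, and COL1A2 and DCN had one in none. The fold was higher in siFLI1 at COL1A1 (4.69 and 3.55 in siNEG, 25.4 and 24.7 in siFLI1), COL3A1 (7.26 and 11.9, 36.4 and 33.5) and PDGFRB (9.0 and 5.61, 21.4 and 15.7), and not at THY1 (16.8 and 17.9, 16.5 and 12.3). The part of these genes in the losses was not tested.

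Lost regions were weak and narrow beside regions in all 4 lists. Their median fold was 4.09 in siNEG replicate 1 and 3.90 in replicate 2, against 37.7 and 39.9 for regions in all 4 lists. All merged regions away from a TSS had medians close to those of lost regions, 4.31 and 4.01 where siNEG listed them, and were narrower, at a median of 410 bp. No lost region lay above the median fold of either siNEG list. Their median width was 640.5 bp, against 3582 bp for regions in all 4 lists and 651 bp for gained regions. The upper quartile was 807 bp in the lost class and 1073 bp in the gained class, so the medians were close and the upper part of the range was wider among gained regions. The lower of the 2 siNEG −log10 q-values had a median of 5.26 over the lost regions, with a range from 2.07 to 36.1. It reached 5 at 358 lost regions, 115 of them isolated, and 10 at 38 lost regions, 25 of them isolated.

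**Figure D1:**
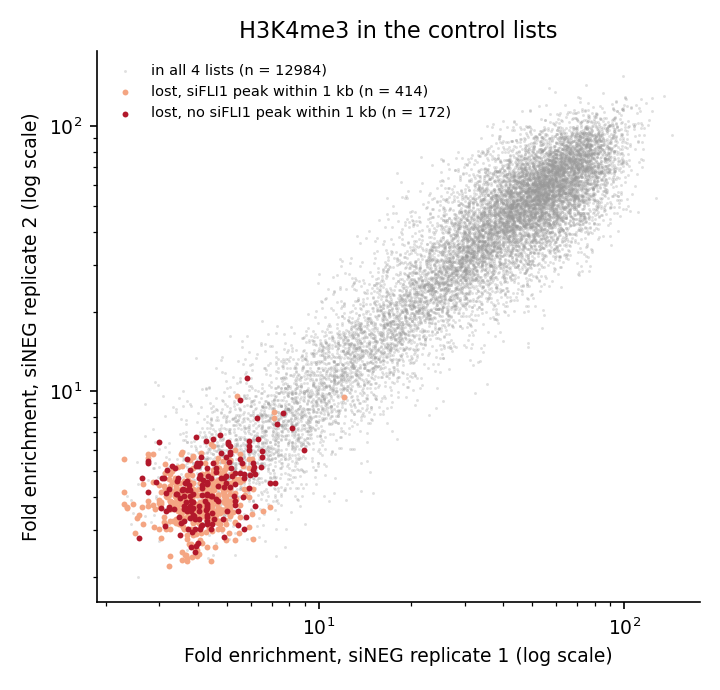
Authors' H3K4me3 fold enrichment in siNEG replicate 1 (horizontal, log scale) and siNEG replicate 2 (vertical, log scale), 1 point per merged region. The 172 isolated and 414 other lost regions sit at the weak end of the 12984 regions in all 4 lists.

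Absence from a list is not absence of the mark, since a peak is listed once it passes a q limit. Another 347 regions were in both siNEG lists and in 1 siFLI1 list. Their siNEG medians were 4.44 and 4.39, close to those of lost regions, and where siFLI1 listed them its median fold was 4.19 in replicate 1 (158 regions) and 4.22 in replicate 2 (189 regions). The count also rested on having both replicates of each arm. It was 3559 without siNEG replicate 1, 2748 without siNEG replicate 2, 808 without siFLI1 replicate 1 and 855 without siFLI1 replicate 2. The isolated count moved in the same order to 968, 691, 274 and 317.

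Most lost regions were small peaks on the flank of a block that both arms kept, a position not particular to them. Of the 586, 446 (76.1%) lay within 1 kb of a region present in all 4 lists, against 18.5% of gained regions. The share was 87.5% of all merged regions and 77.2% of those away from a TSS, both counting regions in all 4 lists themselves. The 446 were 400 of the 414 flanking regions, for which the rule all but sets this, and 46 of the 172 isolated ones (26.7%). At these 46 the near end of the kept region was formed by a siNEG peak. The flanking regions lay at a median of 372.5 bp from the nearest siFLI1 peak. Another siNEG peak was also close, within 1 kb at 396 of the flanking regions in replicate 1 and 405 in replicate 2, at medians of 306.5 and 281 bp. The siFLI1 lists had a peak within 1 kb at 367 and 380 of them, at medians of 481 and 488 bp. Among regions within 5 kb of a TSS that did not hold one, the centre was downstream of the TSS at 240 of 364 flanking and 55 of 83 isolated regions.

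The strongest of these flanking regions lay in an intron of SLC3A2, which encodes the heavy chain of several amino acid transporters. It spanned chr11:62859307-62861761, 3139 bp from a TSS, with a fold of 12.1 and 9.49 in siNEG, and a siFLI1 peak began 518 bp away. The next were intergenic regions at chr18:12059995-12060955 (7.11 and 8.35) and chr6:122842177-122843045 (7.11 and 7.92). Neither of these had an H3K27ac peak in any list. A region near a TSS of ARHGAP11B, a gene in a recently duplicated stretch of chromosome 15 where reads can be shared with its parent copy, had 5.40 and 9.64. Regions in introns of BAK1, which encodes a pro-apoptotic protein of the BCL2 family, and of the F-box gene FBXL12 had 6.03 and 5.57, and 5.90 and 5.57.

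**Figure D2:**
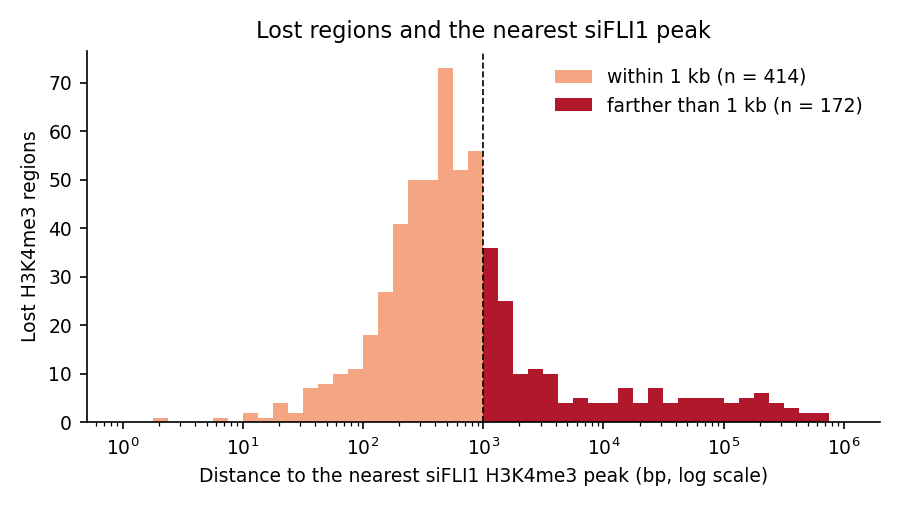
Distance in bp (horizontal, log scale) from each lost region to the nearest siFLI1 H3K4me3 peak, as a count of regions (vertical), with the 1 kb limit dashed. The 414 regions within 1 kb have a median of 372.5 bp, and the 172 isolated regions have a median of 3479 bp.

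The limit of 1 kb fell inside a continuous spread of distances. The nearest regions on either side of it lay 998 and 1006 bp from a siFLI1 peak. No siFLI1 peak was found within 500 bp of 305 lost regions, within 5000 bp of 78 and within 100000 bp of 26. The farthest was 708828 bp from one.

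Fewer lost regions than gained regions or regions in all 4 lists lay at a TSS. Of the 586, 209 (35.7%, 95% exact binomial interval 31.8 to 39.7) lay within 1 kb of a TSS, against 71.9% of gained regions and 94.3% of regions in all 4 lists. The share of all merged regions was 72.9%, and 12249 of these 15100 regions at a TSS were in all 4 lists. Merged regions outside that class were not compared separately. The isolated regions were at a TSS in 75 of 172 cases (43.6%, 36.1 to 51.4) and the flanking ones in 134 of 414 (32.4%, 27.9 to 37.1). Lost regions were still near genes, with a median distance of 1726 bp to a TSS and 94.7% within 10 kb. The centre of an isolated region was intronic in 95 cases, exonic in 39 and intergenic in 38. All these intervals cover counting error over regions, which are not replicates of the conditions.

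Lost regions were poor in CpG. The ratio of observed to expected CpG in 300 bp at the centre had a median of 0.225 over lost regions, against 0.426 over all merged regions and 0.558 over both gained regions and regions in all 4 lists. Flanking regions were lowest, at 0.198, and isolated regions at a TSS were highest among the lost, at 0.361. Isolated regions away from a TSS had 0.298, against 0.250 for all merged regions and 0.647 for regions in all 4 lists in that position. Away from a TSS they were thus poorer in CpG than kept regions but not than merged regions as a whole. The median GC content was 46.3% for lost regions and 54.7% for regions in all 4 lists.

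**Figure D3:**
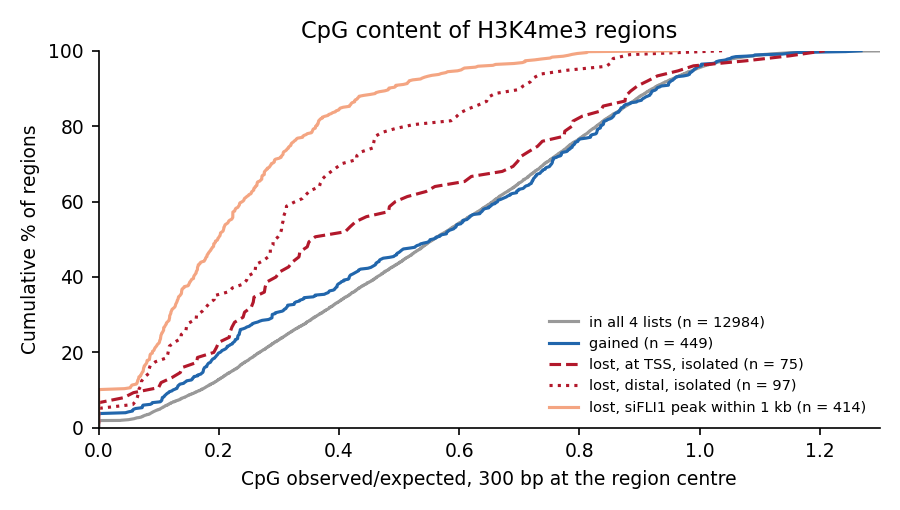
Cumulative share of regions (vertical, %) by observed to expected CpG ratio of 300 bp at the region centre (horizontal), for 3 classes of lost region, gained regions and regions in all 4 lists. Flanking lost regions rise earliest (median 0.198). Among the lost classes isolated regions at a TSS come closest to the regions in all 4 lists (0.361 and 0.558).

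Chromosome 19 held 73 of the 586 lost regions (12.5%, 9.89 to 15.4) and 25 of the 172 isolated ones (14.5%, 9.63 to 20.7). It held 7.86% of all merged regions and 7.13% of gained regions.

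At promoters, the isolated regions with the highest siNEG fold belonged to genes of several kinds. The strongest spanned the start of PADI2, which encodes an enzyme that converts arginine to citrulline in proteins including histones. It lay at chr1:17118510-17119563, with a fold of 7.61 and 8.31 in siNEG, and the nearest siFLI1 peak was 63833 bp away. PGLYRP2, a peptidoglycan recognition protein, followed with 7.26 and 7.50 at chr19:15498258-15499052. CNIH2, an auxiliary subunit of AMPA glutamate receptors, had 6.28 and 7.92 at chr11:66277924-66278956. The cadherin gene CDH20 had the widest of these regions, 1987 bp at chr18:61333405-61335391, with 6.30 and 6.64 and no siFLI1 peak within 270848 bp.

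Among the other isolated promoter regions of this rank, those of RUBCNL, NHSL1, EPS8L1 and PALM3 lay away from the 5′ end of the gene. At RUBCNL, a regulator of autophagy, the region (chr13:46386472-46387705, fold 6.51 and 5.64) spanned a start 50485 bp from the 5′ end of the gene. NHSL1 (6.47 and 5.18) and EPS8L1 (6.91 and 4.50) each kept a region in all 4 lists at another of their starts, so what was lost there was 1 start of several. PALM3 had 5.05 and 6.43. The remaining regions spanned the 5′ end of their gene. They lay at ABCA13, a transporter of the ABC family (7.20 and 4.52), C1QL1, a secreted synaptic protein (5.12 and 6.21), TMEM145 (4.48 and 6.64) and ADGRA1-AS1 inside the adhesion receptor gene ADGRA1 (5.49 and 5.57).

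Of the 75 isolated regions at a TSS, 61 had a protein-coding nearest gene and 8 a long non-coding RNA gene. At 32 of the 75, another start of the nearest gene had a region in all 4 lists. At the other 43, of which 31 had a protein-coding nearest gene, no siFLI1 peak lay at any start of that gene. The sets also differed in features the split did not use, with a median CpG ratio (observed to expected, as above) of 0.620 in the 43 and 0.241 in the 32. An H3K27ac peak was present in at least 1 list at 12 of the 43 and 19 of the 32.

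As examples, 10 of the 43 are named here, all at protein-coding genes and without an H3K27ac peak. Since 31 of the 43 had a protein-coding nearest gene and 12 had H3K27ac in at least 1 list, the 10 do not represent the 43. The 10 were chosen after their values were seen, and no theme among the 43 was tested. NEUROD6, a neuronal transcription factor, had a siNEG fold of 4.14 and 4.44, and BHLHE22, another factor of the same family, had 4.88 and 4.36. CHAT, the enzyme that makes acetylcholine, had 3.78 and 5.04, and GRIN1, a subunit of NMDA receptors, had 3.43 and 4.09. The adrenergic receptor genes ADRA2B and ADRA2C had 5.76 and 3.36, and 5.29 and 3.86. All of these were weak peaks with no H3K27ac peak in any of the 4 lists. The ephrin receptor EPHB1 (3.46 and 4.71), the growth factor FGF18 (3.38 and 5.14), the WNT deacylase NOTUM (4.05 and 3.70) and the repressor GFI1 (3.73 and 3.03) were of the same kind, also with no H3K27ac peak.

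Away from promoters, the 10 isolated regions with the highest fold mostly carried H3K27ac, with a peak in at least 1 list at 9 of them. The strongest was intergenic at chr9:108272203-108272680, 17383 bp from the nearest TSS, with an H3K4me3 fold of 5.82 and 11.2 and no siFLI1 peak within 633446 bp. Its H3K27ac fold was 13.0 and 13.7 in siNEG and 20.0 and 12.3 in siFLI1, so the arms overlapped. A region in an intron of GLG1, a Golgi glycoprotein gene, had an H3K4me3 fold of 8.13 and 7.28 at chr16:74559339-74560875. There H3K27ac was 14.3 and 10.7 in siNEG and 5.82 and 4.76 in siFLI1, and the arms did not overlap. In an intron of SLC35F1, a solute carrier gene, the H3K4me3 fold was 6.51 and 5.95, and H3K27ac was 17.4 and 13.5 in siNEG and 13.5 and 7.95 in siFLI1.

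The region in an intron of NFIC, a transcription factor of the nuclear factor I family, was the 1 of these 10 with no H3K27ac peak, at an H3K4me3 fold of 5.50 and 9.30. An intronic region of SLC35E2B had 8.94 and 6.0 and an H3K27ac peak in siFLI1 replicate 2 alone. Intergenic regions at chr13:30118676-30119625 (5.89 and 6.21) and chr22:23521464-23522260 (5.90 and 6.0) had H3K27ac in all 4 lists. At the second of these H3K27ac was 23.3 and 16.7 in siNEG and 21.6 and 25.8 in siFLI1. Intronic regions of the long non-coding genes LINC01605 (4.75 and 6.85) and ENSG00000253880 (6.10 and 5.35) and of STOX2 (5.88 and 6.48), which encodes a storkhead-box protein, completed the 10.

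GGAA repeats were rare among lost regions, and within 1 kb of the centre their share was higher than among all merged H3K4me3 regions. A tandem run of at least 4 units, searched on both strands as GGAA or TTCC, was found no more than 1 kb from the centre in 11 of the 586 (1.88%, 0.941 to 3.33). The share was 0.502% of all merged regions, 0.668% of gained regions and 0.293% of regions in all 4 lists. It was 7 of 172 (4.07%, 1.65 to 8.21) among isolated regions and 4 of 414 (0.966%, 0.264 to 2.46) among flanking ones. Of all merged regions away from a TSS 1.07% had such a run, against 6 of the 97 isolated lost regions in that position (6.19%). In 2 of the 586 the run lay inside the interval (0.341%, 0.0414 to 1.23) and in the other 9 beside it. A run lay inside 0.429% of all merged regions, 0.267% of those away from a TSS, 0.668% of gained regions and 0.578% of regions in all 4 lists. By this measure lost regions were thus not above all merged regions. Without siNEG replicate 1 the share of lost regions with a run near the centre was 0.955%, and without siNEG replicate 2 it was 1.06%.

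The longest runs, whose sequences are given above, stood next to weak H3K4me3. The run of 16 units ended 119 bp from a lost region at chr11:1044602-1045293, with an H3K4me3 fold of 4.47 and 4.02. At the repeat in TRDN, the gene of triadin in muscle, the H3K4me3 interval chr6:123222287-123223572 ended 101 bp before the run of 15 units and had 3.96 and 2.62. The run of 14 units lay 52 bp from chr4:180565342-180565981, which had 3.91 and 3.31. These 3 regions were isolated, with the nearest siFLI1 H3K4me3 peak 115547, 220243 and 503022 bp away.

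Of the lost regions beside the 6 longest runs, 4 had H3K27ac in all 4 lists, with a higher fold in siNEG than in siFLI1. The chromosome 10 region had no H3K27ac peak, and the FSD1L region, also beside 11 units, had one in siFLI1 replicate 1 alone, at 3.54. The median fold of the H3K27ac lists was 4.56 and 4.33 in siNEG and 4.66 and 4.81 in siFLI1. At the TRDN region the H3K27ac fold was 32.4 and 31.6 in siNEG and 5.13 and 4.99 in siFLI1. The chromosome 11 region had 18.0 and 16.3 in siNEG and 4.58 and 7.88 in siFLI1, and the chromosome 4 region had 17.6 and 16.7, and 6.03 and 5.38. Beside the chromosome 1 repeat of 9 units H3K27ac was 15.7 and 13.5 in siNEG and 6.57 and 6.24 in siFLI1, at a region with a siFLI1 H3K4me3 peak 363 bp away. The values of the arms did not overlap at these 4 regions. By H3K27ac rank, 18.3% of all merged regions with a peak in all 4 lists of equal length were lower in both siFLI1 lists, and 29.0% of those away from a TSS.

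The gap varied among shorter repeats, and a link between repeat length and gap was not tested. At STOX2, where a run of 6 units lay inside the lost interval, H3K27ac was 26.4 and 20.2 in siNEG and 16.8 and 14.5 in siFLI1. At LINC02866, also with 6 units inside, it was 7.49 and 10.1, and 6.94 and 6.99. A lost region on chromosome 14, in an intron of ENSG00000258982, with a run of 4 units 713 bp away, had 9.98 and 8.65, and 8.73 and 7.24, where the arms overlapped in fold. The regions beside the runs at GYS1 (5 units) and RGS10 (4 units) had no H3K27ac peak.

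Over all lost regions, the share with an H3K27ac peak differed between the arms by less than the spread between lists of an arm. The share was 30.7% and 29.9% in siNEG and 31.9% and 30.0% in siFLI1, with means of 30.3% ± 0.603 and 31.0% ± 1.33 (SD, n = 2 lists each). In the same order of lists it was 53.8%, 50.4%, 55.7% and 54.2% of all merged regions and 25.3%, 25%, 26.8% and 24.9% of those away from a TSS. The difference of 0.683 percentage points (pooled SD 1.03) had p = 0.67 in an exact permutation test over lists (two-sided), and 0.8 after Benjamini-Hochberg adjustment over the 6 classes tested. With 2 lists per arm the exact test cannot give a p below 0.33, and it measures only the spread between these libraries. Without siFLI1 replicate 1 the difference was -0.256.

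None of the classes of lost region passed that test either. The share in isolated regions was 48.8% and 46.5% in siNEG and 49.4% and 44.2% in siFLI1 (exact permutation p = 1, two-sided). In isolated regions away from a TSS it was 64.9% and 59.8%, and 59.8% and 55.7% (exact permutation p = 0.67, two-sided). Isolated regions at a TSS had 28.0% and 29.3%, and 36.0% and 29.3% (exact permutation p = 0.67, two-sided). Flanking regions had 23.2% and 22.9% in siNEG and 24.6% and 24.2% in siFLI1, a difference of 1.33 points that exceeded their pooled SD of 0.270 and had the smallest possible exact permutation p of 0.33 (two-sided). Regions in all 4 H3K4me3 lists, the sixth class tested, had 73.3% and 67.9%, and 75.2% and 73.7% (exact permutation p = 0.33, two-sided). Among the lost classes H3K27ac was thus most frequent at isolated regions away from promoters, of which 45 of 97 (46.4%, 36.2 to 56.8) had it in all 4 lists, against 16.8% of all merged regions and 40.3% of regions in all 4 H3K4me3 lists away from a TSS.

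**Figure D4:**
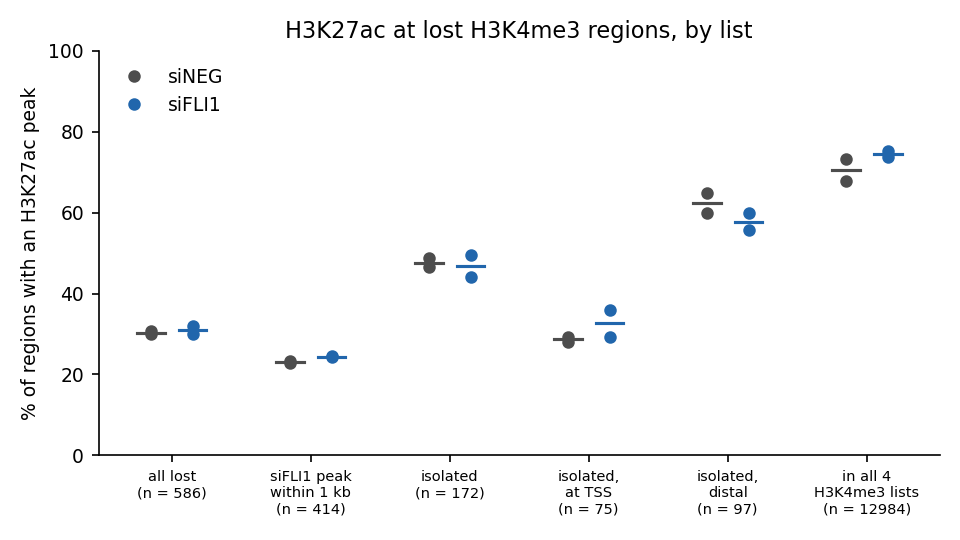
Share of regions with an H3K27ac peak (vertical, %) by class of H3K4me3 region (horizontal), with 1 point per list, 2 lists per arm, and a bar at the mean of each arm. The means for all lost regions are 30.3% and 31.0%, and isolated regions away from a TSS have the highest shares among the lost, at means of 62.4% and 57.7%.

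Loss of the 2 marks at the same place was rare, at a share near that of other H3K4me3 regions. By the same rule, 4.86% of all merged H3K27ac regions were lost and 8.19% were gained. Of the lost H3K4me3 regions, 7 (1.19%, 0.482 to 2.45) overlapped a lost H3K27ac region, against 1.67% of all merged regions and 1.16% of those away from a TSS. An overlap with a gained H3K27ac region was found at 4 (0.683%, 0.186 to 1.74), against 4.24% of all merged regions and 1.65% of those away from a TSS. The 7 lay in SETD5, EXOC6B, HINT1, DAP and LMNA (2 regions) and beside DENND6B, and a lost region could also touch a second H3K27ac region that was kept. At EXOC6B, a subunit gene of the exocyst complex, the H3K4me3 region (chr2:72510332-72512037, fold 3.94 and 6.74) had an H3K27ac fold of 13.2 and 20.6 in siNEG and 6.44 and 5.73 in siFLI1. At LMNA, the gene of nuclear lamins A and C, H3K27ac was 3.93 and 4.98 in siNEG at the stronger of both regions, with no peak in siFLI1.

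The strength of H3K27ac, where present, was compared by rank, an analysis added after the data were seen. Each H3K27ac list was cut to its 60027 strongest peaks, and a region took the percentile of its strongest peak. Of the 118 lost regions with H3K27ac in all 4 of these lists, 48 (40.7%) ranked lower in both siFLI1 lists than in both siNEG lists and 25 (21.2%) ranked higher. The corresponding shares of all merged regions were 18.3% lower and 29.7% higher, which lean the opposite way, and those of all merged regions away from a TSS were 29.0% and 23.7%, which lean the same way as lost regions. Isolated regions ranked lower at 31 of 60 (51.7%) and flanking ones at 17 of 58 (29.3%), the latter close to the share away from a TSS. Isolated regions away from a TSS did so at 24 of 45 (53.3%).

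Leaving out 1 list in turn left the share that ranked lower between 48.4% and 49.2% for lost regions and between 27.2% and 31.6% for all merged regions, with 39.7% to 41.7% for all merged regions away from a TSS. The ab4729 libraries, with 1 list per arm and so no replicate check, did not show this for lost regions as a whole. There 15 of 35 (42.9%) ranked lower in siFLI1, against 48.7% of all merged regions, and 11 of 20 isolated regions did so.

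All 7 of the GGAA regions with H3K27ac in the 4 lists ranked lower in both siFLI1 lists. The percentile at the TRDN region was 99.1 and 99.7 in siNEG and 54.7 and 52.4 in siFLI1, and at the chromosome 4 region it was 95.2 and 97.3, and 66.7 and 58.9. The gap in percentile was smallest at STOX2, with 98.3 and 98.4, and 95.4 and 93.6. In the ab4729 lists 4 of 4 GGAA regions present in both ranked lower in siFLI1, among them TRDN with a fold of 9.65 in siNEG and 5.26 in siFLI1. At LINC02866 there was an ab4729 peak in siFLI1 (8.54) and none in siNEG, and it is not among these 4. Outside the repeats, ABCA13 had percentiles of 88.3 and 77.7 in siNEG and 17.8 and 19.8 in siFLI1. The reverse was seen at a region in CAV2, with 97.8 and 89.4 in siNEG and 99.4 and 98.2 in siFLI1.

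**Figure D5:**
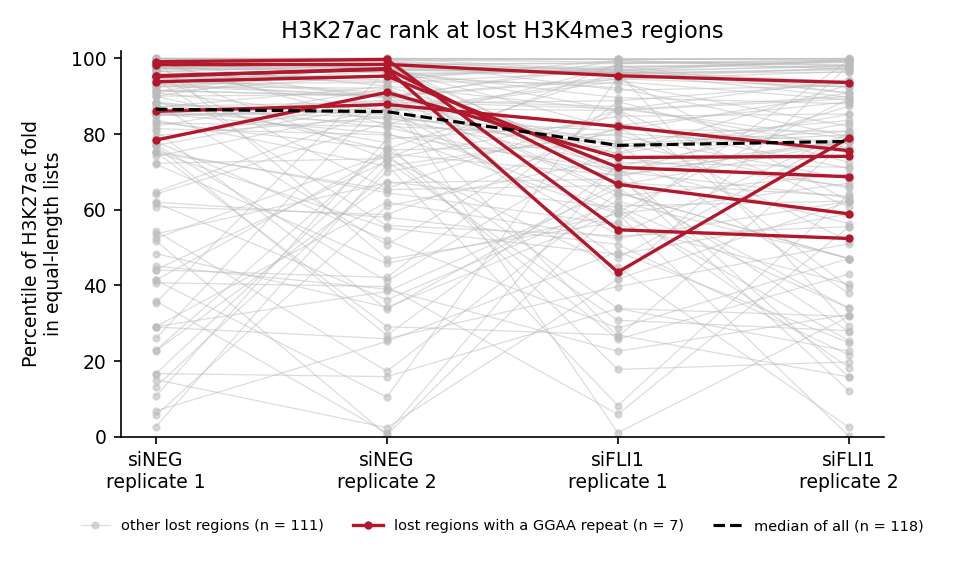
Percentile of the H3K27ac fold in lists of equal length (vertical) in each of the 4 lists (horizontal) for the 118 lost regions present in all of them, with a line per region that serves only to join its points. The 7 regions with a GGAA repeat (red) lie lower in both siFLI1 lists than in both siNEG lists, and the median of all 118 (dashed) goes from 86.6 and 85.9 to 77.0 and 78.0.

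No known target of the fusion that was examined had a lost region at its promoter, a place where lost regions were few in any case (209 of the 15100 merged regions at a TSS). Of 25 genes known to be raised by EWSR1::FLI1, 22 had an H3K4me3 region within 1 kb of a TSS, all 22 had one in all 4 lists, and none had a lost one. A peak listed in both arms can still differ in strength, as at CCND1, a cyclin gene, with a fold of 106 and 117 in siNEG and 53.6 and 69.3 in siFLI1. Of 17 genes known to be lowered by it, 16 had such a region and none had a lost one. Within 100 kb of the raised genes, 5 of 103 regions were lost (4.85%, against 2.83% of all merged regions) and 1 was gained, with a region counted for each gene it is near. Within 100 kb of the lowered genes, 0 of 45 were lost.

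Of these 5, 1 had a raised gene as its nearest gene. It lay 4569 bp from the start of NR0B1, an orphan nuclear receptor gene, at chrX:30313959-30314605. Its H3K4me3 fold was 3.22 and 4.29 in siNEG, and H3K27ac there was 15.6 and 17.3 in siNEG and 6.61 and 3.67 in siFLI1, without overlap. At the start of NR0B1 itself the H3K4me3 fold was 70.8 and 46.9 in siNEG and 47.2 and 35.1 in siFLI1. The other 4 were nearer to other genes. They lay in C11orf58 (2562 bp from a start of SOX6), in CAV2 (17888 bp from CAV1) and, near FCGRT, in RPL13A with its small nucleolar RNAs (14002 bp) and beside MIR150 (5343 bp). RPL13A has many processed copies in the genome, so reads there may be shared with them.

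ETS1 peaks were rare at lost regions, as they were at gained regions and away from promoters. A peak in any ETS1 list overlapped 4 of the 586 (0.683%, 0.186 to 1.74), against 11.0% of all merged regions, 0.891% of gained regions and 1.33% of all merged regions away from a TSS. No lost region had an ETS1 peak in a siNEG list, and no gained region had one. Such siNEG peaks overlapped 1.35% and 0.873% of all merged regions in replicates 1 and 2, and 0.142% and 0.0889% of those away from a TSS. In siFLI1 the ETS1 fold was 6.72 and 10.2 at a flanking region near SLC25A42, a mitochondrial carrier gene. It was 4.89 in replicate 2 beside SOCS3, an inhibitor of cytokine signalling, 4.91 in replicate 1 in LINC01503 and 7.48 in replicate 2 at an intergenic region on chromosome 10. At SOCS3 H3K27ac was 14.9 and 11.8 in siNEG and 18.6 and 14.8 in siFLI1, so a lost H3K4me3 peak there stood beside H3K27ac that both arms kept.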

How the data were processed

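Peak lists of 14 immunoprecipitated libraries were deposited, 1 per library, and 8 input libraries had no list analysed here. The submitters' processing notes name cutadapt 4.4, BWA 0.7.17, Picard 2.17.11 and MACS2 2.1.1 and the builds GRCh38, hg38 and dm6, without a role. Peak coordinates fitted hg38 chromosome lengths and are given on hg38, counted from 1. In the deposited lists the fold is the authors' ratio of a peak over local background, the −log10 columns are the authors' p-value and q-value, and the score column was not used. How these values were scaled was not given in the sources used here, and folds were used to describe and rank peaks within a list.

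Members and gene lists were chosen with earlier results of these data known. Lists were merged at 1 bp overlap on chromosomes 1 to 22 and X. A region took the value of its highest-fold peak in each list. Distances are between interval ends. TSSs came from GENCODE release 44 (218738 start positions), and a region was at a TSS when its interval lay within 1 kb of one. GGAA runs of at least 4 units were counted within 1 kb of the centre. Shares have exact 95% binomial intervals (Clopper-Pearson), which cover counting error over regions. The H3K27ac share was compared between arms by an exact two-sided permutation test over lists. Apart from 10 promoter regions that the text says were chosen later, names were set by a rule on the mean siNEG H3K4me3 fold: the 12 highest isolated regions at a TSS, the 10 highest farther away, the 6 highest flanking ones, the 12 longest GGAA runs, the 10 highest that overlap a lost H3K27ac region, all within 100 kb of a listed gene, and up to 5 with an ETS1 peak. Alternatives covered the overlap, the q limit, list length, distances, repeat length and leaving out each library.

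Same-numbered lists of both arms did not deviate together (correlation of deviations of log2 fold 0.00822 for H3K4me3 over 12984 regions and 0.0109 for H3K27ac). Replicate lists of an arm were not copies of each other, with at most 7 identical intervals per pair. The scripts were tested on simulated data. Python 3.11.15, numpy 2.4.6, pandas 2.3.3, scipy 1.17.1 and matplotlib 3.10.9 were used.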

Additional observations from a re-analysis of the deposited data

How the results depend on the processing

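Among the 63 alternatives to the 7 results, 21 moved a value, 5 changed its sign, and the other 37 held its direction, its interval or 1.5 times the count. The lost count was 1258 when intervals had to share 50% of the shorter one (counted as siNEG replicate 1 peaks), 172 with no siFLI1 peak within 1 kb and 360 with a −log10 q of at least 5 required in siNEG alone. Leaving out 1 library gave 808 to 3559 lost and 274 to 968 isolated regions, with the largest values without siNEG replicate 1. The isolated count was 305 at 500 bp and 78 at 5000 bp. The share at a TSS was 28.3% by region centre, 65.4% within 2.5 kb, 14.2% with the TSS inside, 30.0% for protein-coding starts, 43.6% for isolated regions and 28.8% to 38.5% with 1 library left out. The share with a GGAA repeat was 0.341% inside the interval, 4.07% for isolated regions and 0.955% to 1.49% with 1 library left out. The count with an ETS1 peak was 9 within 1 kb.

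The difference in H3K27ac share changed sign to -1.88 points when 50% of the region had to be covered, -0.256 with lists of equal length, -0.872 for isolated regions and -4.64 for isolated regions away from a TSS. In the unreplicated ab4729 pair, with 32738 peaks in siNEG and 51663 in siFLI1, it was 3.75 points, while the share of all merged regions was 40.7% and 46.7%. With 1 library left out it ranged from -0.256 (without siFLI1 replicate 1) to 1.62. With the replicate number as a block (replicate block) it was 0.683, with an exact permutation p of 0.5, and the block left the counts at 586 and 172, since counts do not use it. The numbers paired nothing, so this changed no call. The cause of these moves was not tested. The rank count was 60 to 63 with 1 library left out and 46 with the lists as deposited. Library depth is not in the lists, so what it limits cannot be stated.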
